A study of Rattus norvegicus with 15 samples.

Results

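Axon guidance ligands and their receptors were examined in the nucleus accumbens, the ventral part of the striatum, of rats that had self-administered cocaine or saline. The genes were taken by symbol from the semaphorin (Sema3 to Sema7), plexin, neuropilin, Eph, ephrin, netrin, Unc5, Dcc, Robo and Slit families. This rule found 56 of the 14497 genes that had a probe set with 1 symbol on the array. Of these, 54 exceeded each array's 30th percentile on 3 or more arrays and were tested among 11778 genes, while the probe sets of Epha1 and Robo3 did not. The 54 were 6 class 3 semaphorins, 10 membrane semaphorins, 5 plexins, 2 neuropilins, 6 EphA receptors, 4 EphB receptors, 7 ephrins, 3 netrins, 4 netrin receptors, 3 Robo receptors and 2 Slits, together with Unc50 and Unc5cl, which share a name stem with the netrin receptors but are not guidance receptors. Each gene stands for 1 probe set, the one with the highest mean where a gene had several, as only Sema4c did. Plxna4 and Epha4 were not analysed here.

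The study used male Sprague-Dawley rats of 250 to 350 g in work on incubated craving, in which cocaine seeking evoked by cues grows during abstinence. There were 15 arrays in 5 groups of 3. Rats labelled 1W and 30W had pressed a lever for cocaine at 0.75 mg/kg per infusion, with a light cue, in sessions of 6 hours on 10 days, and had then been kept without the drug for 1 or 30 days. Rats labelled 1C and 30C had the same histories and also an extinction test of cocaine seeking. Sal rats had self-administered saline for 10 days, and their labels give neither a withdrawal time nor a test. Every rat carried a jugular catheter, and a cannula implantation is mentioned in the protocol. Values are log2 expression, on which a difference of 1 is a doubling. From the labels it is unclear if each array is 1 animal or a pool, so the p-values measure only the spread between these samples, which may be technical.

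Guidance families act as pairs of cue and receptor that steer growing axons and, in the adult brain, remain on neurons and glia, where they bear on dendritic spines and synapses. Netrin 1 attracts axons through Dcc and repels them through the Unc5 receptors. Slits repel axons through Robo receptors, and ephrins are membrane-bound ligands of the Eph tyrosine kinases, with signals running both ways. Secreted class 3 semaphorins bind neuropilins, which signal with plexins, whereas most membrane semaphorins bind plexins directly. In the striatum these systems are known for sorting cortical and dopaminergic input and for setting apart its own neurons.

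The tissue label was checked first. Markers of medium spiny neurons, the main striatal cell type, were high on all arrays, with Drd2, the D2 dopamine receptor, between 11.21 and 11.88 and Ppp1r1b, which encodes DARPP-32, between 11.8 and 12.39. Slc17a7, the vesicular glutamate transporter of cortical projection neurons, ranged from 7.16 on Sal replicate 1 to 12.16 on 30C replicate 1. A cortical score, the mean over the 21 of 27 listed cortical markers that were measured of each marker's deviation from its own mean, spanned -0.91 to 0.56 in Sal, -0.38 to 0.13 in 1W, -0.34 to 0.25 in 1C, -0.04 to 0.15 in 30W and -0.49 to 0.75 in 30C. None of the guidance genes is a marker in the score. The arrays differed in cortical marker level mostly within groups, and the Sal and 30C groups each held both a low and a high array. The medium spiny neuron score (28 of 35 markers) was lowest, at -0.4, on 30C replicate 1. Correlations between arrays were 0.9929 to 0.9967.

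**Figure D1:**
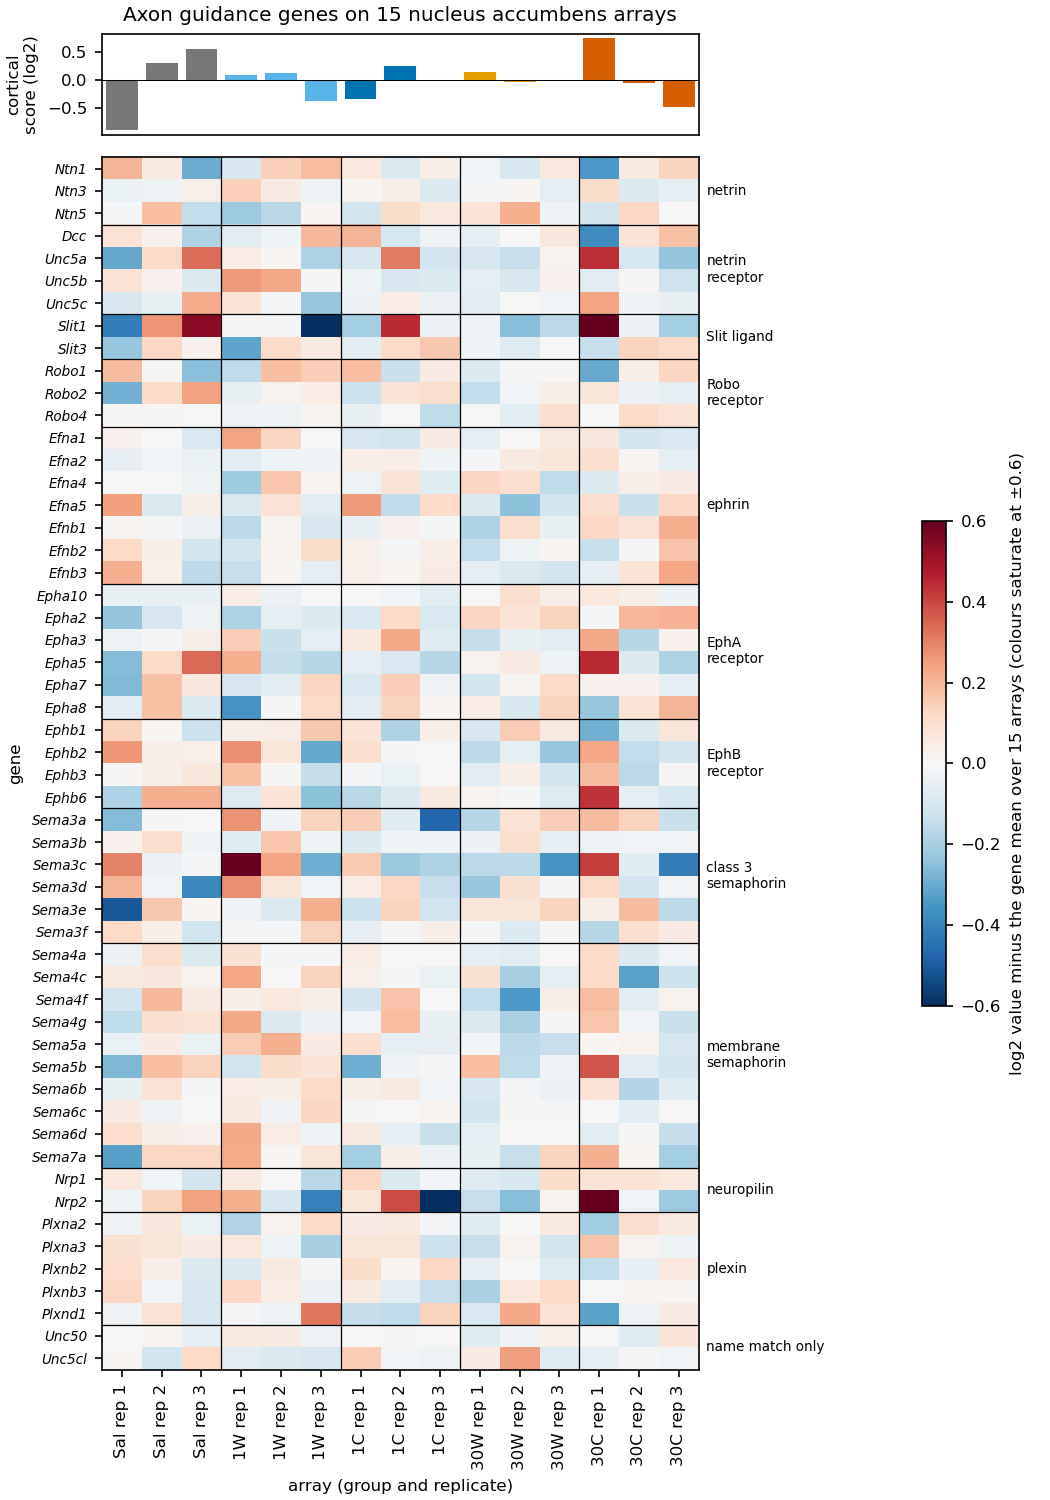
Heat map of the 54 guidance genes (rows, by family) on the 15 arrays (columns, by group and replicate), as the log2 value minus the gene's mean over all arrays, with the cortical score of each array as bars on top. Slit1, Nrp2 and Unc5a are high on 30C replicate 1, where the score is 0.75, and Dcc, Ntn1 and Robo1 are low there.

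Guidance genes varied somewhat more over the arrays than genes in general. The range between a gene's lowest and highest array had a median of 0.43 over the 54 members, from 0.16 to 1.31, and of 0.33 over all 11778 genes. The widest ranges were those of Nrp2 (1.31), Slit1 (1.31) and Sema3c (1.23). By family the median range was highest for the Slits (0.9), neuropilins (0.8) and class 3 semaphorins (0.7) and lowest for the plexins (0.33) and ephrins (0.39).

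No guidance gene changed between groups after adjustment over all genes. In limma, 0 of the 54 members and 0 of the 11778 genes (0%) had an adjusted p under 0.05 in any of the 8 comparisons of 2 groups, in the effect of the test averaged over withdrawal or in the interaction of test and withdrawal. In the effect of 30 against 1 day averaged over the test, 1 gene of the 11778 passed (0.00849%) and it was no member. The moderated F test over the 5 groups also gave 0 of 11778 genes (0%), with an unadjusted p under 0.05 for 4 members (7.41%) and for 6.96% of all genes. The 4 were Epha2, Sema5a, Unc5b and Efnb1. Intervals were taken for each gene alone. The 95% interval of the log2 difference lay within 0.5 of 0 for 48 to 51 of the 54 members in each comparison of 2 groups. It lay within 1 for all 54. Smaller changes are not excluded, and the spread behind the intervals may be technical. The exceptions at 0.5 always included Nrp2, Slit1 and Sema3c.

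Between 1 and 30 days of withdrawal without a test, 4 of 54 members had an unadjusted limma p under 0.05, which is 7.41% against 10.1% of all genes. Of the 4, Epha2 and Ntn5 were higher in 30W (3.7% of members against 4.19% of all genes) and Sema5a and Unc5b were lower (3.7% against 5.9%). The count was 2 without 1W replicate 1, 8 without 1W replicate 3, and 7 without 30C replicate 1, which enters the estimate of the spread alone. Here and below, the share of all genes at that p was not counted in alternative settings. Such counts therefore show only how the number of members moves. Centring each array on its median gave 1 higher and 8 lower in place of 2 and 2. Genes in general shifted with it, with positive differences for 24.6% of all genes in place of 39.7%. Groups did not overlap for 6 members (11.1%, against 16% of all genes).

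Sema5a, a membrane semaphorin that can attract or repel axons, gave the smallest p among members. Its values were 9.79, 9.85 and 9.69 in 1W and 9.62, 9.48 and 9.5 in 30W, against 9.6, 9.69 and 9.6 in Sal, 9.74, 9.58 and 9.59 in 1C and 9.65, 9.66 and 9.54 in 30C. The 1W arrays were the highest group, and each of them lay above every 30W array. The difference of 30W from 1W was -0.24 (SE 0.06, unadjusted p = 0.0016, adjusted p = 0.373 in limma). It stayed between -0.29 and -0.21 over 25 alternative settings, with an adjusted p of 0.16 to 0.7. In the same direction, Sema5a was lower by -0.14 (SE 0.06) in 1C than in 1W and higher by 0.15 (SE 0.06) in 1W than in Sal, 2 comparisons that share the 1W arrays with the first.

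Unc5b, a netrin receptor also known from the endothelium of growing vessels, followed a like order. It stood at 9, 8.97 and 8.75 in 1W, 8.72, 8.65 and 8.66 in 1C, 8.69, 8.65 and 8.77 in 30W, 8.68, 8.75 and 8.62 in 30C and 8.83, 8.77 and 8.66 in Sal. Replicates 1 and 2 of 1W were above every other array, whereas replicate 3 lay inside the range of the other groups. Against 1W the difference was -0.23 (SE 0.07, unadjusted p = 0.0052) for 1C, with no overlap, and -0.2 (SE 0.07, unadjusted p = 0.011) for 30W, with overlap. Both had adjusted p-values of 1 and 0.375 in limma, in that order. Efna1, an ephrin ligand of EphA receptors, had 8.02, 7.91 and 7.78 in 1W against 7.68, 7.67 and 7.83 in 1C, a difference of -0.18 (SE 0.07, unadjusted p = 0.025, adjusted p = 1 in limma) with overlapping arrays. In the other groups Efna1 lay at 7.81, 7.78 and 7.69 in Sal, 7.73, 7.78 and 7.84 in 30W and 7.85, 7.67 and 7.69 in 30C.

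Markers of some other cells differed on the same arrays. The oligodendrocyte score (21 of 26 markers) was -0.03 to 0.24 in 1W, -0.06 to -0.04 in 1C, -0.05 to 0.05 in 30W, -0.13 to -0.05 in 30C and -0.09 to 0.15 in Sal, and was highest on 1W replicates 1 and 2. The endothelial and mural score (20 of 21 markers) was 0.07 to 0.12 in 1W and 0.02 to 0.08 in 1C, against 30W (-0.07 to 0.07), 30C (-0.18 to 0.02) and Sal (-0.09 to 0). The oligodendrocyte precursor score (11 of 13 markers) was 0.01 to 0.13 in 1W, -0.03 to 0.04 in 1C, -0.08 to -0.02 in 30W, -0.06 to -0.02 in 30C and -0.08 to 0.08 in Sal. The microglia and macrophage score (20 of 22 markers) was 0.01 to 0.18 in 1W, -0.02 to 0.11 in 1C, -0.08 to -0.02 in 30W, -0.06 to -0.02 in 30C and -0.06 to -0.01 in Sal, so that neither overlapped between 1W and 30W. The astrocyte score (17 of 20 markers) was -0.06 to 0.14 in 1W and overlapped 30W (-0.05 to -0.01). The choroid plexus and ependymal score (10 of 14 markers) was -0.28 to -0.02 in 1W, -0.01 to 0.47 in 1C and -0.12 to 0.35 in 30W. The meningeal and fibroblast score (13 of 15 markers) was -0.07 to -0.01 in 1W, -0.11 to 0.27 in 1C and -0.05 to 0.06 in 30W. The part of any of these cells in the values of Sema5a, Unc5b and Efna1 was not tested. RNA from whole tissue does not tell fewer cells of a type from less RNA per cell.

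Epha2, an EphA receptor of epithelial and vascular cells among others, was higher after 30 days in both pairs of groups. Its values were 6.13, 6.08 and 6.14 in 30W and 5.99, 6.2 and 6.21 in 30C, against 5.81, 5.94 and 5.92 in 1W, 5.91, 6.12 and 5.91 in 1C and 5.77, 5.9 and 5.97 in Sal. All 30W arrays lay above all 1W and Sal arrays, and 30C overlapped 1C. The difference was 0.23 (SE 0.08) for 30W against 1W, 0.15 (SE 0.08) for 30C against 1C and 0.19 (SE 0.05, unadjusted p = 0.0035, adjusted p = 0.241 in limma) averaged over the test. In that averaged effect 2 of 54 members (3.7%, against 13% of all genes) had an unadjusted p under 0.05, and the other one was Sema5a at -0.13 (SE 0.04). Leaving out 1W replicate 2, 1W replicate 3 or 30C replicate 1 gave 5 members there, and leaving out 30W replicate 1 or 30C replicate 2 gave 4.

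The probe set of Epha2 had a low level, and low values differed with withdrawal time. All 4 members with a mean below 6.5, namely Epha2, Ntn5, Robo4 and Unc5cl, had positive differences in 30W against 1W, with a median of 0.19. Of the other 50 members, 14 did. Over all genes, differences were positive for 1352 of 1861 with a mean below 6.5 and for 3318 of the other 9917. Among all genes with a mean below 6.5, 11.9% were higher in 30W at an unadjusted p under 0.05, and 2.73% of the remaining genes were. The 25th percentile of the array was 5.48 to 5.51 on the day 1 arrays and 5.53 to 5.59 on the day 30 arrays. The part of this in the values of Epha2 and Ntn5 was not tested. Ntn5, a netrin of low level here, stood at 5.98, 6.11 and 5.87 in 30W and 5.68, 5.73 and 5.91 in 1W, overlapping, with a difference of 0.22 (SE 0.1).

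Membrane semaphorins had negative differences of 30W from 1W in 10 of 10 members, from -0.24 to -0.02 with a median of -0.11, also under further quantile normalization and under median centring. Only Sema5a among them had an unadjusted p under 0.05, and 39.7% of all genes had positive differences. All 10 had means above 6.5, and of the genes at that level 3318 of 9917 had positive differences. The difference of 1C from 1W was negative for 9 of the 10, with a median of -0.09, and for all 6 class 3 semaphorins, with a median of -0.08, while 47.1% of all genes had positive differences. That of 1W from Sal was positive for all 10, with a median of 0.04, for 8 under further quantile normalization, and for 57.7% of all genes. These comparisons share the 1W arrays and are no separate evidence of one another. Sema3c, a class 3 semaphorin, had the largest difference of any member, -0.48 (SE 0.24, unadjusted p = 0.068, adjusted p = 0.522 in limma) in 30W against 1W. It read 8.39, 7.81 and 7.28 in 1W and 7.41, 7.41 and 7.22 in 30W, so that a single 1W array stood far above the others.

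**Figure D2:**
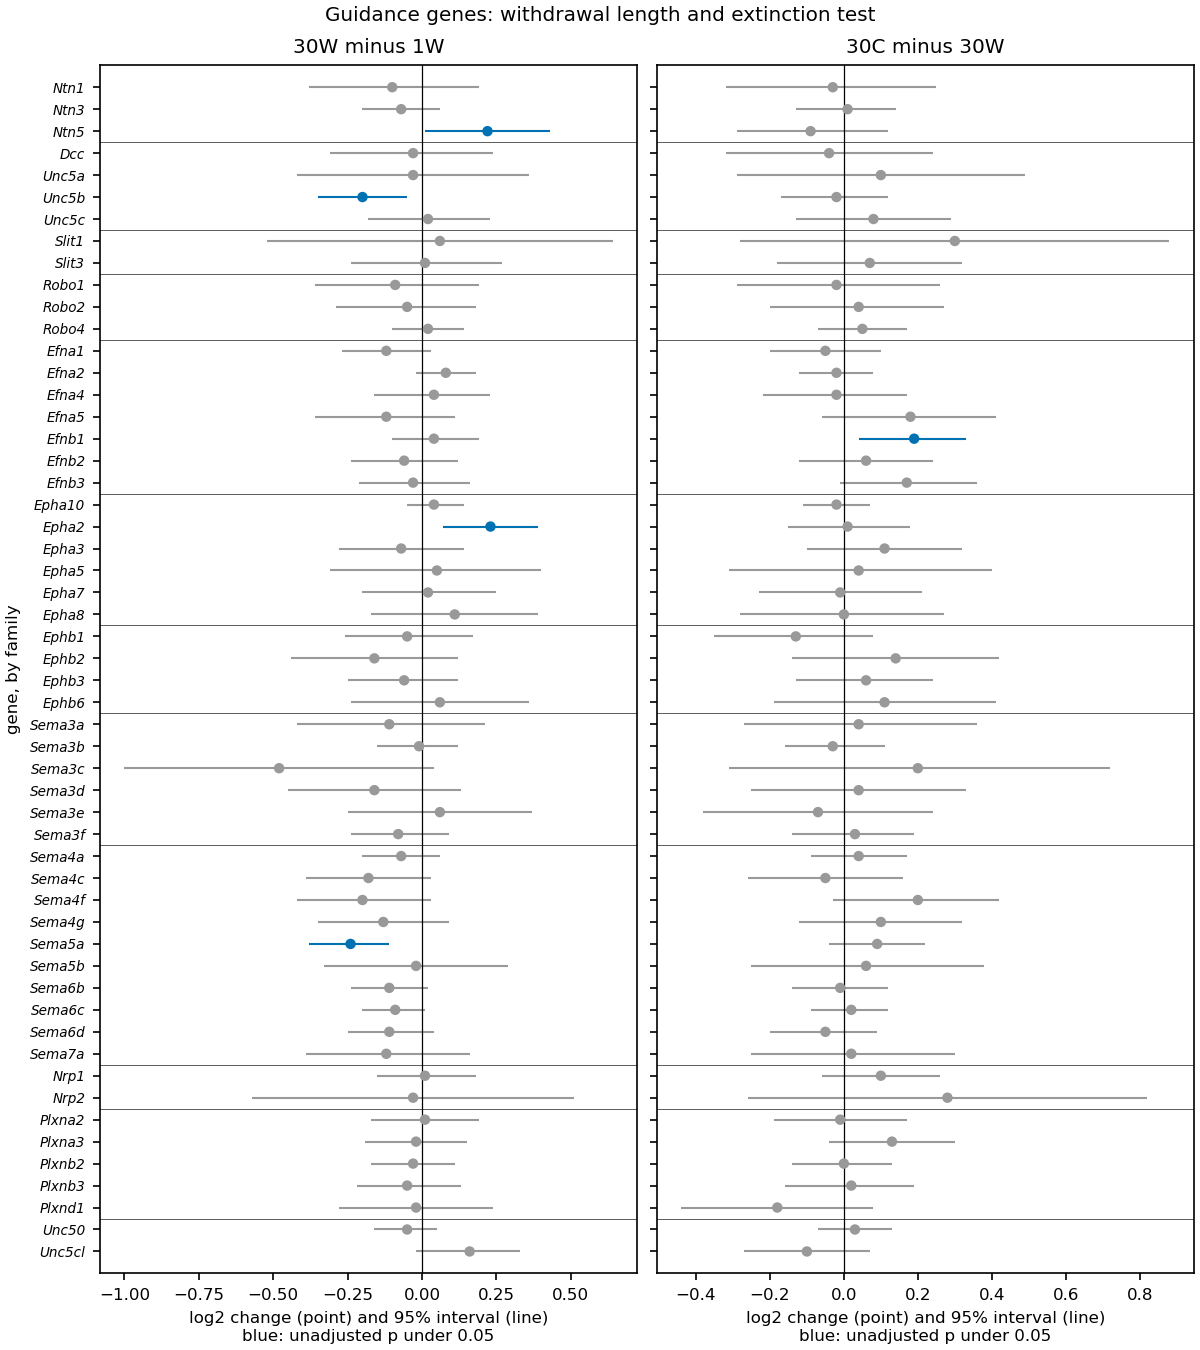
Log2 change of each guidance gene with its 95% interval for 30W minus 1W (left) and 30C minus 30W (right), genes ordered by family. Blue marks an unadjusted p under 0.05, which 4 genes have on the left and 1 on the right, and nearly all intervals reach across 0.

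The extinction test on day 30 gave 1 member at an unadjusted p under 0.05 in 30C against 30W (1.85%, against 3.93% of all genes), the B-class ephrin Efnb1, which signals to EphB receptors. Efnb1 stood at 8.12, 8.08 and 8.21 in 30C, 7.81, 8.1 and 7.95 in 30W, 7.95, 8.02 and 7.98 in 1C, 7.83, 8.01 and 7.9 in 1W and 8.01, 7.98 and 7.96 in Sal. Its 30C arrays lay above all 1C, 1W and Sal arrays, and 1 of the 30W arrays lay among them. The difference was 0.19 (SE 0.07, unadjusted p = 0.016, adjusted p = 0.999 in limma) from 30W and 0.15 (SE 0.07, unadjusted p = 0.041) from 1C. Efnb1 was no longer under 0.05 without 30W replicate 1 or without 30C replicate 3, where the count was 0. The count was 4 without 30W replicate 3 or 30C replicate 2, and 2 without Sal replicate 1, Sal replicate 3 or 30C replicate 1.

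Efnb3 and Sema4f came next in 30C against 30W. Efnb3, a B-class ephrin found at synapses, had 9.28, 9.41 and 9.56 in 30C and 9.27, 9.24 and 9.22 in 30W, with no overlap and a difference of 0.17 (SE 0.08, unadjusted p = 0.058). Non-overlapping groups occurred for this 1 member (1.85%) and for 8.38% of all genes. In 1C its arrays read 9.36, 9.34 and 9.38, against 9.19, 9.34 and 9.27 in 1W, and in Sal 9.54, 9.36 and 9.17, the widest spread of any group. With the cortical score as a covariate its difference was 0.18, with an unadjusted p of 0.0067 and an adjusted p of 0.82 in limma. Efnb1, Sema4f and Slit1 were also under 0.05 there before adjustment, Slit1 at 0.27 (unadjusted p = 0.0097, adjusted p = 0.86 in limma). Sema4f, a membrane semaphorin, had 8.45, 8.2 and 8.29 in 30C and 8.12, 7.92 and 8.3 in 30W, overlapping, with a difference of 0.2 (SE 0.1, unadjusted p = 0.077). The remaining arrays read 8.3, 8.33 and 8.3 in 1W, 8.15, 8.44 and 8.27 in 1C and 8.15, 8.46 and 8.32 in Sal, so that the lowest array was one of 30W.

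The test on day 1 gave 3 members at an unadjusted p under 0.05 in 1C against 1W, all lower (5.56% of members, against 2.17% of all genes lower and 4.02% in both directions). They were Unc5b, Efna1 and Sema5a, described above. Groups did not overlap for 3 members (5.56%, against 7.86% of all genes): Unc5b, lower in 1C, and Efnb3 and Unc5cl, higher. The count at the unadjusted p was 1 without 1W replicate 1, 1W replicate 2 or 1C replicate 2, and 5 without 1W replicate 3. Averaged over withdrawal, 4 members had an unadjusted p under 0.05 (7.41%, against 4.85% of all genes): Efnb1 (0.13, SE 0.05) and Efnb3 (0.13, SE 0.06) were higher with the test, and Unc5b (-0.12, SE 0.05) and Efna1 (-0.11, SE 0.05) were lower. That count was 2 without 1W replicate 1, 1W replicate 2 or 30W replicate 2, and 1 without 30W replicate 3. In the interaction 1 member did (1.85%, against 3.03% of all genes), Sema5a at 0.23 (SE 0.09, unadjusted p = 0.021, adjusted p = 0.999 in limma). The interaction was positive for 40 of the 54 members, with a median of 0.06, and for 54% of all genes. Without single arrays the interaction count ran from 0 to 4. It was 0 without the second array of 1W, 30W or 1C or the third of 1C, 2 without the third Sal or the first 1C array, 3 without the third 30C array, and 4 without the third array of 1W or of 30W.

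In 30C against 1C, 2 members had an unadjusted p under 0.05, both higher (3.7%, against 2.41% of all genes higher and 5.48% in both directions). Besides Efnb1 this was Robo4, an endothelial Robo receptor, with 6.35, 6.47 and 6.44 in 30C and 6.31, 6.35 and 6.2 in 1C, touching at 6.35 and differing by 0.13 (SE 0.05, unadjusted p = 0.027). Leaving out the third 1C array gave a count of 0, and leaving out the second array of Sal or 30C or the third of 30W or 30C gave 1. It was 4 without the second 1C array or the first 30C array. Groups did not overlap for Efnb1 alone (1.85%, against 9.69% of all genes). The other Robo4 arrays read 6.36, 6.36 and 6.35 in Sal, 6.33, 6.33 and 6.37 in 1W and 6.35, 6.29 and 6.46 in 30W.

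**Figure D3:**
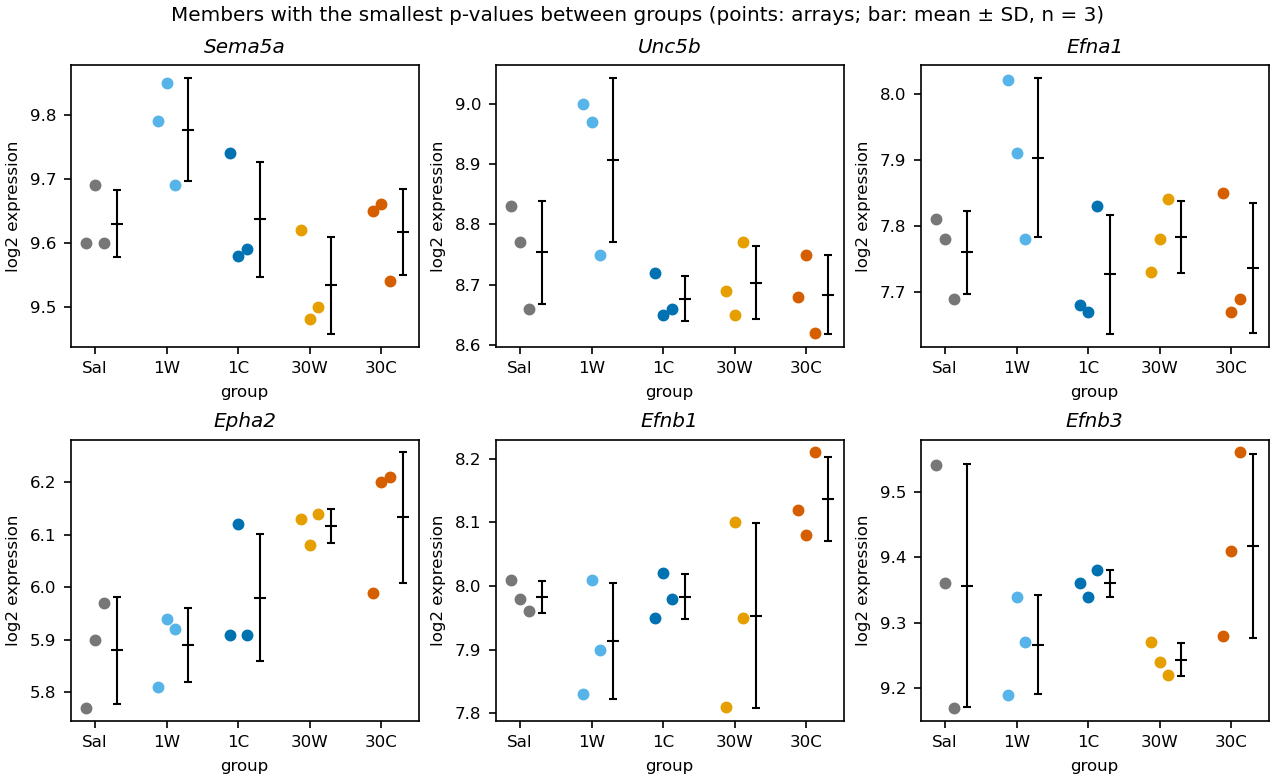
Log2 expression on each array (points) with the mean and SD of the 3 arrays of a group for the 6 members named most often by the comparisons of groups. In Sema5a and Unc5b the highest arrays belong to 1W, in Epha2 the 30W arrays lie above Sal and 1W, and in Efnb1 the 30C arrays lie above all but 1 of the 30W arrays.

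The 4 cocaine groups were each compared with the same 3 Sal arrays, so these comparisons are not independent. The count of members at an unadjusted p under 0.05 was 2 in 1W (3.7%, against 4.87% of all genes), 0 in 1C (0%, against 3.43%), 1 in 30W (1.85%, against 7.6%) and 2 in 30C (3.7%, against 5.06%). Groups did not overlap with Sal for 2 members in 1W (3.7%, against 8.09% of all genes), 1 in 1C (1.85%, against 7.18%), 8 in 30W (14.8%, against 13.7%) and 4 in 30C (7.41%, against 8.41%). In 1W the 2 with the lower p were Sema5a and Unc5b, and in 30C they were Epha2 and Efnb1. Epha2 was higher than in Sal by 0.23 (SE 0.08, adjusted p = 0.481 in limma) in 30W and by 0.25 (SE 0.08, adjusted p = 0.759) in 30C. Next in 30W came Epha10, an Eph receptor thought to lack kinase activity, with 6.72, 6.81 and 6.75 against 6.67 on each Sal array, and Ephb2, a synaptic EphB receptor, with 7.25, 7.35 and 7.18 against 7.67, 7.45 and 7.44. Neither pair of groups overlapped, at differences of 0.09 (SE 0.04) and -0.26 (SE 0.13). Epha10 read 6.76, 6.68 and 6.72 in 1W, 6.72, 6.7 and 6.65 in 1C and 6.78, 6.75 and 6.68 in 30C. Ephb2 read 7.68, 7.48 and 7.1 in 1W, 7.51, 7.4 and 7.41 in 1C and 7.64, 7.26 and 7.3 in 30C. Sema6d, a membrane semaphorin with plexin receptors, was 9.84, 9.77 and 9.76 in Sal, 9.79, 9.68 and 9.6 in 1C and 9.67, 9.72 and 9.59 in 30C, with differences of -0.1 (SE 0.07) and -0.13 (SE 0.07). It was 9.96, 9.78 and 9.71 in 1W and 9.68, 9.73 and 9.73 in 30W. In 1C the next after it were Robo4 at -0.07 (SE 0.05) and Sema3b, a class 3 semaphorin, at -0.08 (SE 0.06), with 6.8, 6.86 and 6.86 against 6.91, 6.99 and 6.86 in Sal. Sema3b read 6.81, 7.05 and 6.86 in 1W, 6.85, 6.99 and 6.83 in 30W and 6.86, 6.87 and 6.87 in 30C.

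Within groups, by contrast, guidance genes varied with the cortical score. A slope on the score, fitted together with the 5 group means, had an adjusted limma p under 0.05 for 14 of the 54 members, which is 25.9% against 5.44% of all genes. Of these, 8 rose with the score (14.8%, against 3.87% of all genes) and 6 fell (11.1%, against 1.57%). At an unadjusted p under 0.05 there were 20 members (37%, against 18.2% of all genes). Slit1, Unc5a, Epha5, Ephb6, Sema5b, Sema7a, Robo2 and Unc5c rose. Ntn1, Dcc, Robo1, Ephb1, Efnb3 and Efnb2 fell. The receptors that passed thus went in both directions in the netrin, Slit and Eph systems. Of the cues of these systems that passed, Slit1 rose, while Ntn1, Efnb2 and Efnb3 fell. None of the 5 plexins or 6 class 3 semaphorins passed.

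These calls rest on the arrays with the most extreme scores. Without Sal replicate 1, 7 members were called (13%, against 4.33% of all genes), and without Sal replicate 3, 7 (13%, against 3.13%). The number was 4 without 30C replicate 1 (7.41%, against 3.02%) and 8 without 30C replicate 3 (14.8%, against 3.22%). Without both Sal replicate 1 and 30C replicate 1, the 2 arrays farthest from the median score, only Slit1 and Dcc passed (3.7% of members, against 0.611% of all genes). With the score read from Slc17a7 alone, 9 members passed (16.7%, against 4.02% of all genes). All 14 kept their direction in each of these settings, which refit all or most of the same arrays. Medium spiny neuron markers mostly went the other way, with a negative slope in 27 of 28, of which 3 fell and 1 of the list rose past the threshold. Their score was -0.4 on 30C replicate 1, where the cortical score was highest. On Sal replicate 1, where the cortical score was lowest, it was -0.04. Slopes were negative for 14 of 17 astrocyte markers, of which 2 fell past the threshold, and for 9 of 10 choroid plexus and ependymal markers, of which 1 did. They were negative for 19 of 20 endothelial and mural, 12 of 13 meningeal and fibroblast, 16 of 21 oligodendrocyte, 8 of 11 oligodendrocyte precursor and 4 of 20 microglia and macrophage markers, none past the threshold. Of all genes, 6491 of 11778 had a negative slope, and 1.57% fell past the threshold. Whether a member's slope follows the amount of cortical tissue in a sample or expression within cells was not tested.

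**Figure D4:**
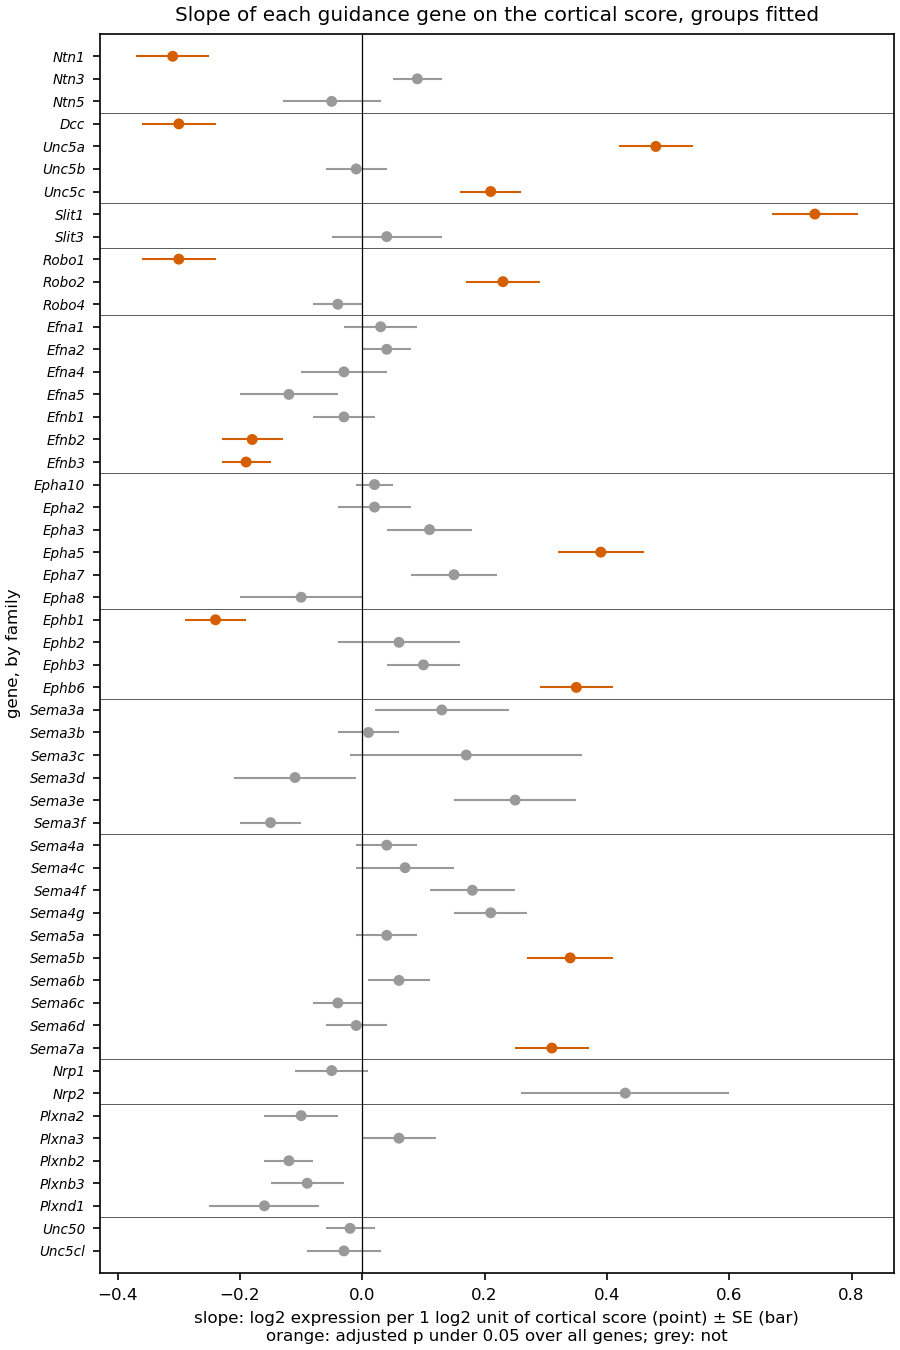
Slope of each guidance gene on the cortical score, in log2 per unit of score, as points with bars of 1 SE, with the 5 group means fitted. Orange marks an adjusted limma p under 0.05, which 8 genes reach above 0, led by Slit1 at 0.74, and 6 genes reach below 0, led by Ntn1 at -0.31.

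Netrin 1 and Dcc fell with the cortical score, while the receptors Unc5a and Unc5c rose. Ntn1 stood at 9.4, 9.25 and 8.9 in Sal, 9.1, 9.34 and 9.38 in 1W, 9.26, 9.11 and 9.23 in 1C, 9.18, 9.1 and 9.26 in 30W and 8.85, 9.25 and 9.33 in 30C. The attractive receptor Dcc read 9.47, 9.41 and 9.2, then 9.32, 9.36 and 9.58, then 9.59, 9.28 and 9.36, then 9.33, 9.38 and 9.45, then 9.01, 9.46 and 9.56 in the same order of groups. Both were lowest on 30C replicate 1 and next lowest on Sal replicate 3, the arrays with the highest scores, and all groups overlapped. Their slopes were -0.31 (SE 0.06, adjusted p = 0.011) and -0.3 (SE 0.06, adjusted p = 0.0099) in limma, and Dcc had a negative slope inside each of the 5 groups.

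Unc5a, a repulsive netrin receptor, rose with the score. It was at 8.82, 9.24 and 9.46 in Sal, 9.17, 9.14 and 8.94 in 1W, 9.03, 9.44 and 9.01 in 1C, 9.03, 8.99 and 9.15 in 30W and 9.57, 9.02 and 8.89 in 30C. It was highest on 30C replicate 1 and lowest on Sal replicate 1, with a slope of 0.48 (SE 0.06, adjusted p = 0.00038 in limma). Unc5c, the receptor of the same family known from work on dopamine axons, had 8.47, 8.52 and 8.79 in Sal, 8.65, 8.56 and 8.34 in 1W, 8.53, 8.61 and 8.53 in 1C, 8.5, 8.57 and 8.55 in 30W and 8.8, 8.54 and 8.52 in 30C, and a slope of 0.21 (SE 0.05, adjusted p = 0.04). The call of Unc5c was kept in only 11 of 25 alternative settings, with an adjusted limma p of up to 0.36. Unc5b had a slope of -0.01 (SE 0.05). Ntn3 and Ntn5 did not pass, at 0.09 (SE 0.04) and -0.05 (SE 0.08).

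Slit1, a repellent made by cortical and other neurons, had the steepest slope of all members. It read 8.59, 9.27 and 9.54 in Sal, 9.01, 8.99 and 8.39 in 1W, 8.8, 9.45 and 8.97 in 1C, 8.98, 8.75 and 8.84 in 30W and 9.7, 8.97 and 8.8 in 30C. The lowest array of 1W and the lowest of Sal were the arrays of those groups with the lowest scores, and every group overlapped every other. Its slope was 0.74 (SE 0.07, adjusted p = 2.6e-05 in limma) and positive in all 5 groups, and it was 0.97 without the 2 arrays farthest in score (adjusted p = 0.012). Slit3 had a slope of 0.04 (SE 0.09), with values between 9.45 and 9.93.

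The Slit receptors Robo1 and Robo2 also parted. Robo1 was at 9.87, 9.69 and 9.43 in Sal, 9.53, 9.86 and 9.83 in 1W, 9.86, 9.55 and 9.73 in 1C, 9.6, 9.67 and 9.69 in 30W and 9.38, 9.72 and 9.81 in 30C, lowest where Slit1 was highest. Its slope was -0.3 (SE 0.06, adjusted p = 0.011 in limma), and that of Robo2 was 0.23 (SE 0.06, adjusted p = 0.043). Robo2 lay between 9.57 on Sal replicate 1 and 10.1 on Sal replicate 3. Its call was kept in only 10 of 25 alternative settings and was lost in others, such as centring on the array median.

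In the Eph system, Epha5, a receptor of A-class ephrins in forebrain axons, rose with the score, at 8.88, 9.26 and 9.48 in Sal, 9.36, 9 and 8.97 in 1W, 9.08, 9.05 and 8.97 in 1C, 9.16, 9.19 and 9.11 in 30W and 9.59, 9.06 and 8.95 in 30C. Its slope was 0.39 (SE 0.07, adjusted p = 0.0062 in limma), with a positive sign within 3 of the 5 groups. Epha7, another EphA receptor of cortex and striatum, did not pass, with a slope of 0.15 (SE 0.07), at 9.41, 9.85 and 9.74 in Sal, 9.57, 9.61 and 9.8 in 1W, 9.58, 9.82 and 9.65 in 1C, 9.56, 9.69 and 9.79 in 30W and 9.7, 9.7 and 9.62 in 30C. Among ephrins, Efnb3 (slope -0.19, SE 0.04) and Efnb2 (slope -0.18, SE 0.05) fell, with adjusted p-values of 0.026 and 0.043 in limma, while Efnb1 (-0.03, SE 0.05) and the 4 A-class ephrins did not pass. Efnb2, a B-class ephrin of neurons and arteries, ranged from 8.47 to 8.79. Its call was kept in only 9 of 25 alternative settings, with an adjusted limma p of up to 0.3.

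Among the EphB receptors, Ephb1 fell and Ephb6 rose. Ephb1, an active kinase of B-class ephrins, stood at 8.85, 8.73 and 8.59 in Sal, 8.75, 8.76 and 8.88 in 1W, 8.8, 8.53 and 8.75 in 1C, 8.62, 8.87 and 8.77 in 30W and 8.43, 8.63 and 8.79 in 30C. Ephb6, whose kinase domain is inactive, stood at 7.97, 8.37 and 8.37, then 8.08, 8.24 and 7.91, then 7.99, 8.07 and 8.21, then 8.18, 8.15 and 8.08, then 8.59, 8.1 and 8.05 in that order. Ephb1 was lowest and Ephb6 highest on 30C replicate 1, and each kept its direction inside all 5 groups. The slopes were -0.24 (SE 0.05, adjusted p = 0.013) and 0.35 (SE 0.06, adjusted p = 0.0019) in limma. Ephb2 (0.06, SE 0.1) and Ephb3 (0.1, SE 0.06) did not pass.

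**Figure D5:**
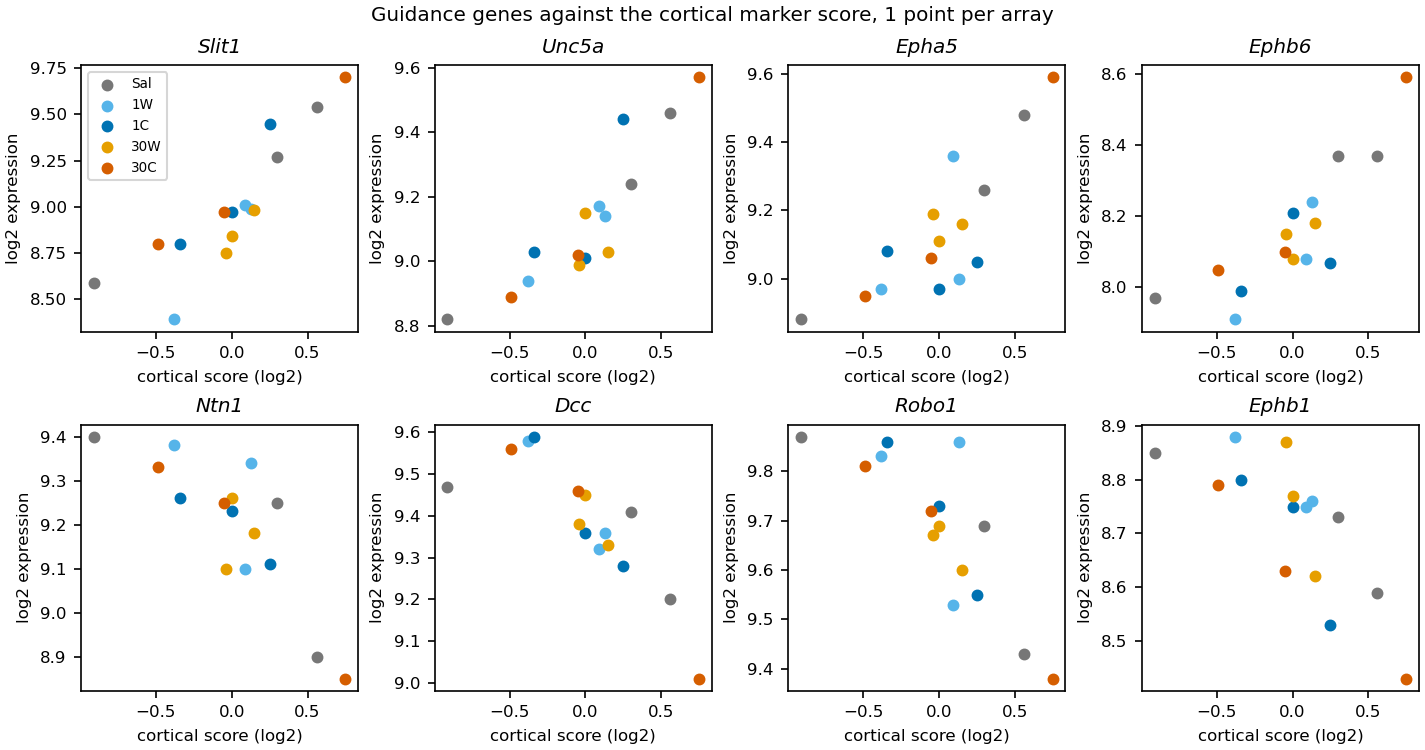
Log2 expression of 8 guidance genes against the cortical score, 1 point per array, coloured by group, for the 4 genes with the steepest rise (top) and the 4 with the steepest fall (bottom) among those past the threshold. Slit1 is 8.59 on the array with the lowest score and 9.7 on the one with the highest, and Dcc is 9.47 and 9.01 there.

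Differences between members of a family were tested directly, in a comparison added after the values had been seen. For each of the 126 pairs within 11 families, the difference of the slopes was set against all 7776 rearrangements of the score within groups, which can give no exact p below 0.00013. After adjustment over the pairs, 8 had an exact p under 0.05. Ephb1 minus Ephb6 was -0.59 (exact permutation p = 0.00013, adjusted 0.016), and Dcc minus Unc5a was -0.78 (exact p = 0.00039, adjusted 0.016). Dcc also differed from Unc5b (-0.29, adjusted exact p = 0.016) and Unc5c (-0.51, adjusted exact p = 0.028), Ephb1 from Ephb3 (-0.34, adjusted exact p = 0.026) and Slit1 from Slit3 (0.7, adjusted exact p = 0.028). Sema6c minus Sema7a (-0.35, adjusted exact p = 0.028) and Plxna3 minus Plxnb3 (0.15, adjusted exact p = 0.026) completed the 8. Robo1 minus Robo2, at -0.53, had an adjusted exact p of 0.052. Without the 2 arrays farthest in score, Ephb1 minus Ephb6 was -0.67 (exact p = 0.0012) and Dcc minus Unc5a was -0.96 (exact p = 0.0035), both unadjusted and over 864 rearrangements, which can give no exact p below 0.0012. None of the 126 pairs passed after adjustment there (0 pairs, smallest adjusted exact p = 0.15). A lone pair at the smallest possible exact p is itself adjusted to 0.15. With so few rearrangements the adjusted test can therefore hardly decide whether the 8 calls hold without these arrays.

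The promoters of these 4 receptors are shown because Ephb1 with Ephb6 and Dcc with Unc5a are the pairs of opposite sign with the smallest exact p-values. They are the 250 bases before the annotated start, from RefSeq on rat assembly GRCr8, 5′ to 3′ on the gene's strand, and capitals mark motif matches on either strand. The motif searched for Sp factors was GGGCGG, known as the GC box. The motif for the core machinery was TATAAA. The response element of cyclic AMP was searched as TGACGTCA and one form of the E box as CAGCTG. Ephb1 is at chr8:111823760-111824009 (minus strand), Ephb6 at chr4:71458382-71458631 (plus strand), Dcc at chr18:68247675-68247924 (minus strand) and Unc5a at chr17:9675664-9675913 (minus strand).
Ephb1: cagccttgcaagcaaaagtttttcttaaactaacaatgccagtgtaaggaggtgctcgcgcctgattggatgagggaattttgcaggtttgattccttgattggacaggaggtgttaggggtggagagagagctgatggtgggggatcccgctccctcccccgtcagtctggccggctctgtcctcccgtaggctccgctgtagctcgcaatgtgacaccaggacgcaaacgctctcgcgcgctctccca
Ephb6: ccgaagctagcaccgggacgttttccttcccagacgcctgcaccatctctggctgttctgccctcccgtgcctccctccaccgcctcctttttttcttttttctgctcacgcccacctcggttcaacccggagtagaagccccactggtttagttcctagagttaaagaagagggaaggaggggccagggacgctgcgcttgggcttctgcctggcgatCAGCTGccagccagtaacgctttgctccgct
Dcc: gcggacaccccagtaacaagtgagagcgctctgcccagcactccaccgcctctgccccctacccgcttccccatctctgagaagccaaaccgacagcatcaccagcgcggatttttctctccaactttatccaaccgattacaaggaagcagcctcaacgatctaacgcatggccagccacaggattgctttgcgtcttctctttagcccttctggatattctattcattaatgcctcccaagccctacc
Unc5a: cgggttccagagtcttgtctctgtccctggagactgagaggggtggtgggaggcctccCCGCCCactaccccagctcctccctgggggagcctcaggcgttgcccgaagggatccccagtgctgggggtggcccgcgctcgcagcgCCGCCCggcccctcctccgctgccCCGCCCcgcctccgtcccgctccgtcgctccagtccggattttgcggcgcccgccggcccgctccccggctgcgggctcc
Ephb6 held 1 CAGCTG and Unc5a held 3 GC boxes, while Ephb1 and Dcc held none of these 4 motifs in the window. Unc5a was richest in G and C at 75.6%, against 56.4% for Ephb1, 59.2% for Ephb6 and 54% for Dcc. Over the 47 member promoters found, of 46 genes, GC boxes were in 51.1% and CAGCTG in 19.1%, against 54.9% and 12.9% of 10226 promoters of tested genes. TATAAA was in 0 of 47, against 7.55%, and TGACGTCA in 2.13%, against 2.6%. A match to letters is a description of the window and not a bound site.

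Among semaphorins and their receptors, Sema7a and Sema5b passed the threshold on the score. Sema7a, a membrane-anchored semaphorin, and Sema5b, a repulsive one, rose by 0.31 (SE 0.06, adjusted p = 0.0061) and 0.34 (SE 0.07, adjusted p = 0.013) in limma. Sema5b read 7.71, 8.16 and 8.12 in Sal, 7.86, 8.09 and 8.06 in 1W, 7.69, 7.96 and 7.97 in 1C, 8.16, 7.83 and 7.96 in 30W and 8.36, 7.92 and 7.87 in 30C, lowest on a 1C array and highest on 30C replicate 1. Sema7a ranged from 10.25 on Sal replicate 1 to 10.8 on 1W replicate 1. Of the other 8 membrane semaphorins none passed, and Sema4g was nearest at 0.21 (SE 0.06, adjusted p = 0.07).

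Sema3a, a secreted repellent, had 7.04, 7.31 and 7.3 in Sal, 7.57, 7.28 and 7.44 in 1W, 7.45, 7.23 and 6.83 in 1C, 7.13, 7.39 and 7.45 in 30W and 7.49, 7.44 and 7.17 in 30C. Its slope was 0.13 (SE 0.11), and its groups overlapped. Nrp1, the receptor of Sema3a, was even, at 7.93, 7.85 and 7.76 in Sal, 7.92, 7.87 and 7.7 in 1W, 7.99, 7.78 and 7.85 in 1C, 7.79, 7.77 and 7.98 in 30W and 7.95, 7.95 and 7.93 in 30C. Nrp2, which binds other class 3 semaphorins, was not: it read 8.23, 8.39 and 8.5 in Sal, 8.47, 8.16 and 7.85 in 1W, 8.33, 8.65 and 7.65 in 1C, 8.12, 8 and 8.28 in 30W and 8.95, 8.24 and 8.04 in 30C. Its lowest and highest arrays were 1C replicate 3 and 30C replicate 1, and its slope was 0.43 (SE 0.17, adjusted p = 0.18 in limma), or 0.44 with an adjusted p of 0.039 without 1C replicate 3. The slopes of the 5 plexins lay between -0.16 and 0.06, with Plxnb2 at -0.12 (SE 0.04, adjusted p = 0.12) nearest to passing.

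Other genes of the pathway were followed in 3 lists. In 30W against 1W, 0 of the 30 measured co-receptors and adhesion partners, 0 of the 23 other cues and 0 of the 61 cytoplasmic effectors passed the adjusted limma threshold, and 2, 2 and 3 were lower at an unadjusted p under 0.05 with none higher, against 5.9% of all genes lower and 4.19% higher. Among them were Vcan (-0.23, SE 0.06), a matrix proteoglycan that repels axons, Rras (-0.23, SE 0.08), a GTPase acted on by plexins, and Mag (-0.17, SE 0.07), a myelin inhibitor of axon growth. Vcan and Mag are also on the marker lists of oligodendrocyte precursors and oligodendrocytes used here. In 30C against 30W the adjusted count was 0 in each list. The unadjusted p was under 0.05 for 2 co-receptors, 1 cue and 2 effectors that were higher and for 1 cue that was lower. Of all genes, 2.11% were higher and 1.82% lower at that p. The lower gene of the lists was the vascular growth factor Vegfa (-0.24, SE 0.08).

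On the cortical score, 3 of the 30 co-receptors rose and 0 fell, 3 of the 23 cues rose and 0 fell, and 6 of the 61 effectors rose and 2 fell, all by the adjusted limma p. Of all genes 3.87% rose and 1.57% fell. Ntng2, a netrin G ligand of glutamatergic neurons, rose by 0.77 (SE 0.07) per unit of score. Nrcam, an adhesion partner of neuropilins, rose by 0.42 (SE 0.04), and Rtn4r, the Nogo receptor, by 0.58 (SE 0.09). The effectors that fell were Chn2, which encodes a chimaerin (-0.25, SE 0.05), and Rnd2, a plexin-binding GTPase (-0.23, SE 0.05).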

How the data were processed

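The authors deposited log2 values made with RMA from 15 Affymetrix arrays of 28826 probe sets, per the submitters' processing notes. Its version is not given in the sources used here. With 3 arrays a group, the number of arrays limits the precision. Platform annotation gave 1 symbol to 15209 probe sets, several to 306 and none to 13311. Unnamed probe sets and those with several symbols were left out. Of the 56 guidance genes, 55 matched RefSeq by Entrez ID.

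Group means were fitted over all 15 arrays in limma 3.58.1 (R 4.3.3), with 10 residual degrees of freedom and Benjamini-Hochberg adjustment over 11778 genes. The slope on the cortical score was fitted beside them. Genes above each array's 30th percentile on at least 3 arrays were kept. Values on every array are given for the 3 members with the smallest p in each comparison of 2 groups and in the F test, the 4 steepest in each direction on the score, and a set known from work on dopamine circuits or striatum. Members and lists were chosen with earlier results of these data known. In simulated data with independent noise for each gene, 200 of 11778 genes were changed at once, by 0.5 or 1 log2 or by slopes of 0.3 or 0.6. The 30W against 1W fit recovered 86.9% of changes of 0.5 log2, with a mean of 10.3 false calls. The slope fit recovered 68.7% of slopes of 0.3, with a mean of 9.2 false calls. These draws lack the variation that genes share on the real arrays, so the percentages do not give the power for the members. Alternatives were the filter, probe set rule, scaling, variance model, array weights, replicate block, covariate, score and leaving out arrays.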

Additional observations from a re-analysis of the deposited data

How the results depend on the processing

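All 14 guidance genes called on the cortical score kept their direction under the 25 alternatives. None of the 38 gene values recomputed (the 3 members with the smallest p in each comparison of 2 groups and the 14 slopes) reversed. The alternatives refit all or most of the same arrays, so a kept direction is no separate evidence. The slope calls of Efnb2, Robo2 and Unc5c were kept in only 9, 10 and 11 of the 25. Slope counts were 2 members and 72 genes without the 2 arrays farthest in score and 9 members and 474 genes with Slc17a7 alone. Over single arrays left out they ran from 4 to 15 members and from 355 to 696 genes. The remaining counts of members are of unadjusted limma p-values under 0.05. The share of all genes at that p was not counted in these settings, so the counts show nothing particular to guidance genes. With the filter at the array median they were 2 in 30W against 1W, 1 in 30C against 1C, 0 in 30W against Sal and 1 in 30C against Sal. Without a filter the interaction gave 2. Further quantile normalization gave 1 in 30C against 1C, 0 in 1W against Sal, 2 in 30W against Sal, 1 in 30C against Sal and 5 in 30 against 1 day. Median centring gave 9 in 30W against 1W, 1 in 30C against 1C, 4 in 30W against Sal, 8 in 30 against 1 day and 2 in the interaction. These scalings moved the median of all genes by at most 0.007 and 0.041. The trended and robust variance gave 2 in 30C against 30W and 2 in the interaction. Array weights gave 2 in 30C against 30W, 4 in 30W and 4 in 30C against Sal, 6 in 30 against 1 day and 2 in the interaction. The cortical score as a covariate gave 4 in 30C against 30W, 5 in 1C against 1W, 3 in 30W against Sal and 4 in 30 against 1 day. Fitting only the arrays compared gave 0 in 30C against 30W and 1 in each of 1C against 1W, 30C against 1C and 1W against Sal, and 5 in 30W against Sal.

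Over all genes, adjusted counts under array weights were 1 in 30C against 30W, 3 in 30W against 1W, 2 in 30C against 1C and 6 in 30 against 1 day. With the covariate they were 1 in 30C against 30W, 1 in 30C against 1C, 2 for the test and 1 for the F test. In 30 against 1 day the count was 2 with the filter at the median, 4 after quantile normalization, 2 after median centring and 0 with only the arrays compared.

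Same-numbered arrays of different groups did not pair: their deviations had a median correlation of -0.01 over 30 pairs, 10 of them over 0.1, and 5 of 15 arrays correlated best with their own number. With the replicate number as a block, member counts were 5 in 1C against 1W, 4 in 30W against Sal, 4 in 30C against Sal, 3 in the interaction and 14 on the score.

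Leaving out single arrays, member counts ran from 0 to 4 in 30C against 30W, 1 to 5 in 1C against 1W, 2 to 8 in 30W against 1W, 0 to 4 in 30C against 1C, 0 to 3 in 1W against Sal, 1 to 3 in 30W against Sal, 1 to 3 in 30C against Sal, 2 to 5 in 30 against 1 day, 1 to 5 for the test and 0 to 4 in the interaction. In 1W against Sal the count was 0 without 1W replicate 2 and 1 without the second or the third array of Sal or 1C or the first of 1W or 30W. In 30W against Sal it was 3 without Sal replicate 1 or 2, and 2 without the third Sal array, the first or the third of 1W, any of 30W, the second of 1C or the first of 30C. In 30C against Sal it was 1 without Sal replicate 2 or 3 or 30C replicate 3. Adjusted counts over all genes ran from 0 to 1 in 30C against 30W, 1C against 1W, 30W against 1W and 1C against Sal, from 0 to 2 in 30C against 1C and in the F test, and from 0 to 3 in 30 against 1 day, where the count was above 0 only without the first or the third Sal array, the third of 1W, the first of 30W, the second of 1C or the first of 30C. The cause of these moves was not tested.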
